A study of Mus musculus with 3 samples.

Results

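The 10 genes described here, Cdkn1a, Mdm2, Ccng1, Gdf15, Bax, Btg2, Plk2, Phlda3, Zmat3 and Trp53inp1, are known targets of the transcription factor p53 and were taken as a named list from the 22535 genes counted in 3 single-cell RNA libraries of mouse kidney cortex. All 10 were detected in all 3 libraries. The mice were WT1CreERT2; Rosa26-tdTfl/+, in which tamoxifen switches on the red reporter tdT in cells that express Wt1 at that time, which in the cortex are podocytes and some parietal epithelial cells (PECs), and in their descendants. Each library pooled 4 kidneys, so that animals cannot be told apart. The Sham library was a 2:1 mixture of sorted tdT+ and tdT- cells from sham-operated mice. Mice with severe ischemia-reperfusion injury (IRI) of both kidneys gave the other libraries at 24 h, IRI24h-TDN with that same mixture and IRI24h-TD with sorted tdT+ cells and no others. The comparisons ask how the transcripts of p53 targets differed between sham and injured kidneys in each cell type.

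p53 is a transcription factor that is stabilized by DNA damage, hypoxia and other stress and then switches on genes for cell cycle arrest, DNA repair and cell death. One of its targets, Mdm2, encodes the ubiquitin ligase that marks p53 for degradation, which closes a feedback loop. In the kidney, p53 and its arrest gene Cdkn1a, which encodes the cyclin-dependent kinase inhibitor p21, are known from injured proximal tubules after ischemia. Several of these genes also answer to signals other than p53, as Gdf15 does to the integrated stress response and Btg2 and Plk2 do to immediate early signalling.

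p53 binds a pair of copies of a decamer, the p53 decamer consensus, made of purines, a C, 2 bases that are each A or T, a G, and pyrimidines. The consensus is its own reverse complement, so that 1 search covers both strands. Promoter windows of RefSeq on GRCm38.p6, from 250 bases before to 50 bases after the transcription start, held at least 1 exact match in 8.36% of 32851 windows and at least 2 matches in 0.359%. Windows were present for 8 members, with 2 each for Cdkn1a and Gdf15. Of these 10 windows 4 had a match, in 4 members. The stretches with a match are shown because these genes include Cdkn1a, the member with the largest fold in podocyte-like cells, and the capitals mark the matches.
Cdkn1a, chr17:29090866-29090977, plus strand: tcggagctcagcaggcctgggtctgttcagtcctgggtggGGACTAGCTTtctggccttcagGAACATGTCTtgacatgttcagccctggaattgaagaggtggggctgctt
Mdm2, chr10:117710895-117710984, minus strand: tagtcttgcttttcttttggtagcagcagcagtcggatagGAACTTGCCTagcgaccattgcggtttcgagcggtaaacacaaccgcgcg
Ccng1, chr11:40755422-40755511, minus strand: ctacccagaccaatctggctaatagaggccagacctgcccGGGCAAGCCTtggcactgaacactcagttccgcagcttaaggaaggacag
Bax, chr7:45467050-45467139, minus strand: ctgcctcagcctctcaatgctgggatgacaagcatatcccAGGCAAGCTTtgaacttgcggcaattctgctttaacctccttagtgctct
In Cdkn1a both matches lay in 1 of its 2 windows, 73 to 64 and 51 to 42 bases before the start. Those of Mdm2, Ccng1 and Bax lay 186 to 177, 185 to 176 and 201 to 192 bases before it. The letters were not found in the windows of Gdf15, Btg2, Plk2 and Phlda3, and Zmat3 and Trp53inp1 are named only. All 10 members are protein-coding genes of GENCODE M21 on GRCm38, and Cdkn1a spans chr17:29090976-29100727 on the plus strand and Gdf15 chr8:70629393-70632456 on the minus strand.

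After removal of barcodes with fewer than 200 genes or more than 50% mitochondrial UMIs (unique molecular identifiers, which count single RNA molecules), 26760 of 30008 barcodes were kept, with a median depth per cell of 7746 UMIs in the Sham library, 9151 for IRI24h-TDN and 9529 for IRI24h-TD. Any pair of libraries had 102 to 114 barcode sequences in common. Cells were grouped by marker genes, and 12 named classes held at least 20 cells in both Sham and IRI24h-TDN. Podocyte-like cells were the most numerous, with 4472 cells in the Sham library, 5341 among those of IRI24h-TDN and 9049 from IRI24h-TD, and all 10 podocyte markers had UMIs in them. PEC-like cells numbered 428, 97 and 158, and cells like proximal tubule epithelium (PTEC-like) 1007, 114 and 48. In PTEC-like cells the 16 PTEC markers summed to 68605 counts per 1000000 UMIs (CPM) in Sham and 14469 in IRI24h-TDN, and 8 injured tubule markers to 290 and 10189. The part of this shift in the results for PTEC-like cells was not tested. IRI24h-TD had under 20 cells of the ascending limb-like, distal convoluted tubule-like, endothelial-like, mesangial and smooth muscle-like and monocytic-like classes, which were compared only between the mixtures.

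A level here is the CPM of a gene in the summed UMIs of all cells of a class in 1 library, and a fold is a ratio of such levels. With 1 library per condition there is no replicate, so that no test was made. The 95% intervals in square brackets are exact, cover counting error only and hold nothing of the spread between animals. A smaller number of transcripts per cell and a change in which cells of a class were captured cannot be told apart in these sums. A gene entered a fold with at least 10 UMIs in the 2 groups together, which all members reached in all 12 classes except Phlda3 in ascending limb-like cells.

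PTEC-like cells had the most members at least 2-fold higher in IRI24h-TDN than in Sham, 5 of 10 against 16.0% of all genes with a fold, and these were Cdkn1a, Gdf15, Bax, Btg2 and Phlda3. With no correction between libraries the Btg2 fold was 1.6 and the count was again 5. The median log2 fold of the members there was 1.15, beside 0.12 over all genes with a fold. One member, Plk2, was at least 2-fold lower, where the share of all genes was 12.1%. In ascending limb-like cells 3 of 9 members were at least 2-fold higher (all genes, 7.52%), namely Cdkn1a, Gdf15 and Bax, and none was at least 2-fold lower (13.6%). The first count was 0 of 9 in the cluster that held most IRI24h-TDN cells of the class, cluster 15, and 2 of 9 there, Cdkn1a and Gdf15, once the cell with most UMIs of each gene was left out of each library. The plot of log2 folds by gene and class shows these values side by side.

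**Figure D1:**
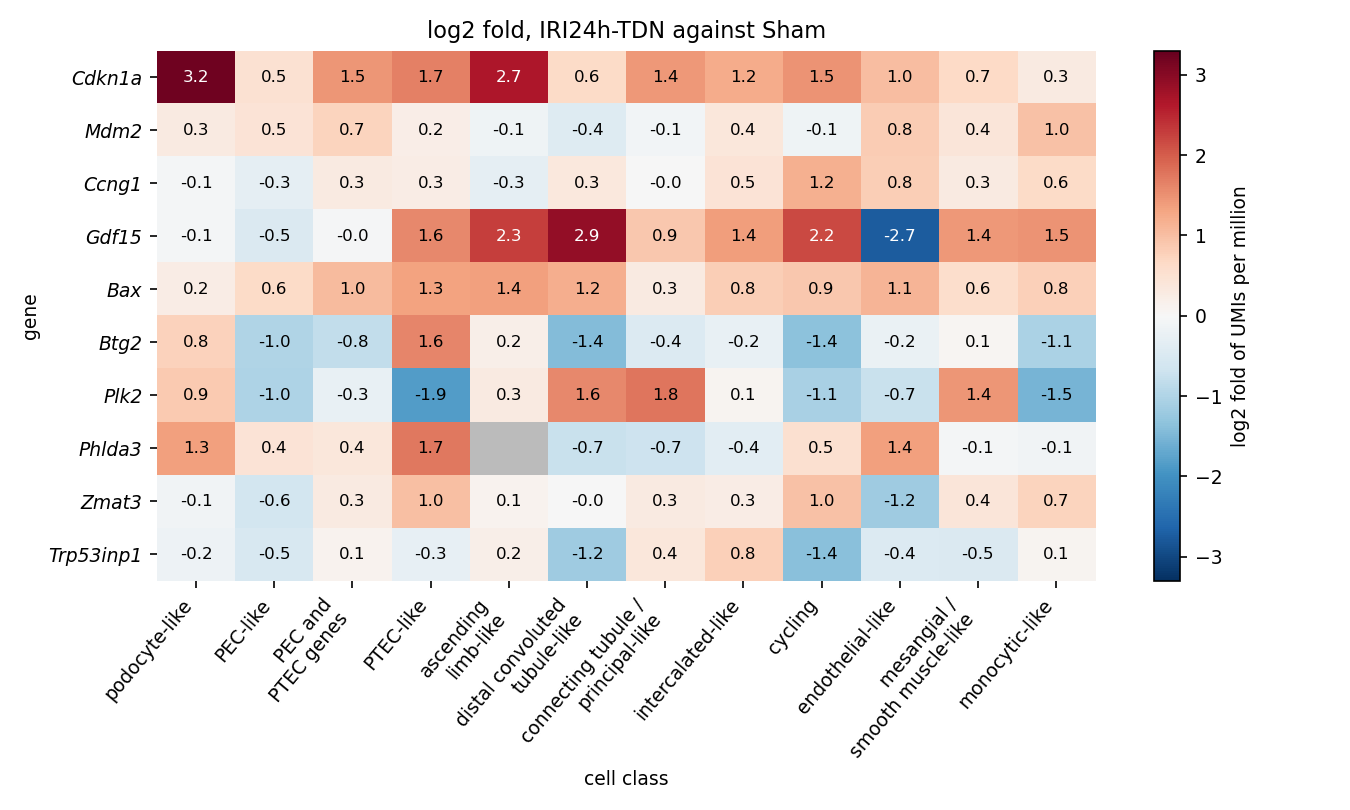
log2 fold of CPM in IRI24h-TDN against Sham for the 10 members (vertical axis) in 12 cell classes (horizontal axis), with the colour scale in log2 units and grey where a gene had too few UMIs. The Cdkn1a line is above 0 in all 12 classes, while the Btg2 and Plk2 lines hold both directions.

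Podocyte-like cells had 2 of 10 members at least 2-fold higher in IRI24h-TDN, Cdkn1a and Phlda3 (all genes, 6.59%), and 0 at least 2-fold lower (11.7%). Their median log2 fold was 0.26, against -0.06 for all genes. In IRI24h-TD against Sham, 1 of 10 was at least 2-fold higher, Cdkn1a (5.14%), and 1 was at least 2-fold lower, Gdf15 (14.5%). The count of higher members was 1 in IRI24h-TDN with thinned counts and reached 3 in IRI24h-TD within clusters 4 and 5, which hold most podocyte-like Sham cells. PEC-like cells had 0 of 10 at least 2-fold higher in IRI24h-TDN (5.27%), and Btg2 and Plk2 were at least 2-fold lower (7.67%). Both lay close to the 2-fold line. Under other settings planned in advance the Btg2 fold ranged from 0.453 to 0.873 and the Plk2 fold from 0.445 to 0.629. In IRI24h-TD against Sham, PEC-like cells had 0 of 10 at least 2-fold higher (4.86%) and 0 at least 2-fold lower (9.63%). Both IRI libraries were compared with the same Sham cells, so their folds are not independent.

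Among the other classes, endothelial-like cells had 3 of 10 at least 2-fold higher (Cdkn1a, Bax and Phlda3) against 9.22% of all genes, and 2 at least 2-fold lower (Gdf15 and Zmat3) against 11.2%. Without the cell with most UMIs of a gene in each library these counts were 2 and 1 of 9, with Cdkn1a at a fold of 1.99 [1.67 to 2.37] and too few Gdf15 UMIs for a fold. Distal convoluted tubule-like cells had 3 higher (Gdf15, Bax and Plk2) against 8.06%, and 2 lower (Btg2 and Trp53inp1) against 18.4%. Cycling cells, named from proliferation genes, had 3 higher (Cdkn1a, Ccng1 and Gdf15) where 16.4% of all genes were, and 3 lower (Btg2, Plk2 and Trp53inp1) where 17.2% were. The class had 26 Sham cells, and without the cell with most UMIs of a gene in each library the folds were 0.589 [0.347 to 1.01] for Plk2 and 0.965 [0.407 to 2.53] for Trp53inp1, so that 1 member was at least 2-fold lower and 4 were higher. Other markers moved with the condition in these cells, since 10 lymphocyte markers summed to 1441 CPM in Sham and 193 in IRI24h-TDN, 11 monocytic markers to 1486 and 231, 11 PEC markers to 1847 and 4306, and 8 injured tubule markers to 617 and 7119, and their part was not tested. Members at least 2-fold higher numbered 2 of 10 in connecting tubule and principal-like cells (10.3%), in intercalated-like cells (9.56%), in mesangial and smooth muscle-like cells (7.09%) and in a class with both PEC and PTEC markers (8.06%), and 0 of 10 were at least 2-fold lower in the first 3 of these classes, where the shares of all genes were 9.25%, 7.54% and 7.63%. The class with both PEC and PTEC markers also had 0 of 10 at least 2-fold lower. There the lower quartile of the log2 folds of all genes was -0.63 and the 5th percentile was -1.81. Monocytic-like cells had 1 higher, Gdf15 (13.6%), and 2 lower, Btg2 and Plk2 (10.1%). A share of about 10% is 1 gene of 10, so that counts of 1 or 2 members lie close to the share of all genes.

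**Figure D2:**
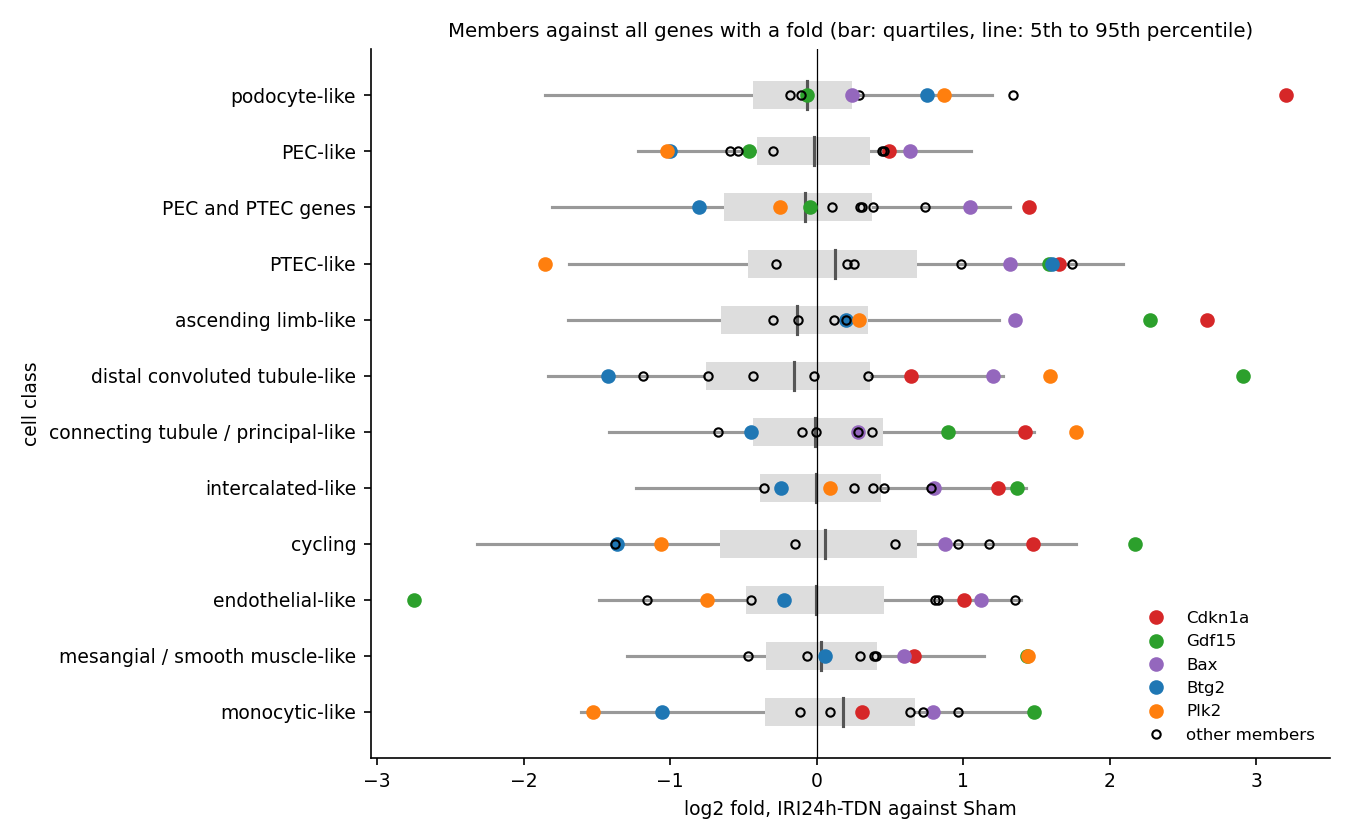
log2 fold of IRI24h-TDN against Sham (horizontal axis) in 12 cell classes (vertical axis), where the grey bar spans the quartiles of all genes with a fold, the line the 5th to the 95th percentile, and the points are the members. Cdkn1a lies right of the line in podocyte-like and ascending limb-like cells and in the class with both PEC and PTEC genes. It lies inside the bar in monocytic-like cells.

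Cdkn1a was higher in IRI24h-TDN than in Sham in all 12 classes, and had the largest fold of the members in podocyte-like cells. Its level there was 5.04 CPM [4.35 to 5.81] in the Sham library, 46.5 [44.6 to 48.4] for IRI24h-TDN and 47.1 [45.7 to 48.6] for IRI24h-TD. The IRI libraries thus stood 9.21-fold [7.94 to 10.7] and 9.34-fold [8.07 to 10.9] above Sham, and 99.5% of the genes with a fold in the first comparison lay below Cdkn1a. Between the 2 IRI libraries the fold was 1.01 [0.963 to 1.07]. The tdT+ sort and the mixture thus gave podocyte-like levels within counting error of each other, although over all cells of a library the level was 176 CPM for IRI24h-TDN and 57.7 for IRI24h-TD. Barcodes with fewer than 200 genes were not kept as cells. Their Cdkn1a level was 3.04 CPM in the Sham library (9 UMIs), near its podocyte-like level. In IRI24h-TDN it was 9.28 (12 UMIs) and in IRI24h-TD 6.79 (1 UMI). Whether these barcodes show the level of free RNA was not tested, so that they set no background for Cdkn1a.

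Counted by cells rather than by UMIs, 3.2% of podocyte-like cells in Sham had a Cdkn1a UMI, against 25.8% for IRI24h-TDN and 26.3% for IRI24h-TD. Their median depths were 8249, 9332 and 9540 UMIs. After each cell was thinned to 2400 UMIs, the shares were 1.03% [0.75 to 1.37], 9.8% [9.02 to 10.6] and 9.78% [9.15 to 10.4]. The difference was thus also present at equal depth, and most podocyte-like cells after IRI had no Cdkn1a UMI at that depth. No class can be taken to lack Cdkn1a, so that no share measures the background from free RNA directly.

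Podocyte-like cells of Sham and of the IRI libraries lay mostly in different clusters, with 1557 and 1449 Sham cells in clusters 4 and 5 and most IRI cells in clusters 0 to 3. Cdkn1a was compared within each cluster that had at least 20 cells of both conditions, and it was higher in IRI24h-TDN in 10 of 10 clusters, by at least 2-fold in 9. In IRI24h-TD it was higher in 10 of 10, by at least 2-fold in 8. In cluster 4 the level was 3.41 CPM in Sham, against 30.4 for IRI24h-TDN and 32.3 for IRI24h-TD. In cluster 1 it was 9.46, 65.6 and 66.3 CPM. The smallest fold was in cluster 17.3, 1.15 [0.273 to 5.55], from 4 Sham UMIs and 6 IRI24h-TDN UMIs. Cluster 13, with 517 of its 551 cells in IRI24h-TD and a median of 875 UMIs in them, had 35.1 CPM in IRI24h-TD and 171 in the 25 cells of IRI24h-TDN.

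**Figure D3:**
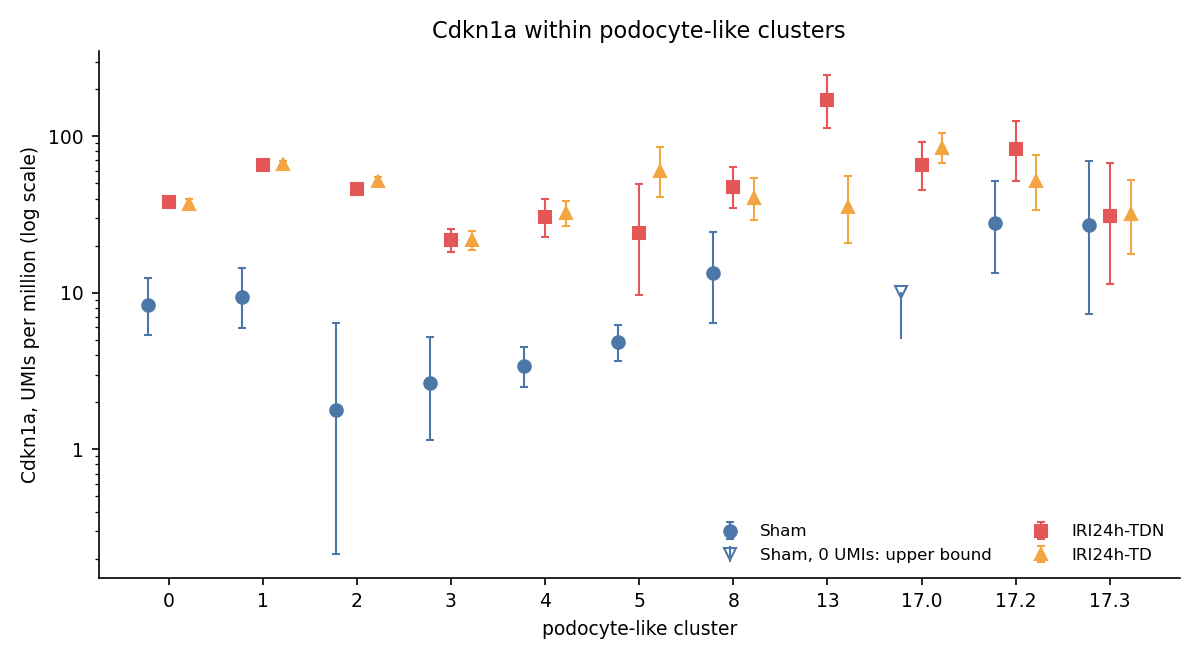
Cdkn1a in CPM (vertical axis, log scale) in each podocyte-like cluster (horizontal axis) and library, with exact 95% Poisson intervals. The open triangle is the upper bound where Sham had 0 UMIs, and in each cluster with Sham cells plotted the points of both IRI libraries are above the Sham point.

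In PTEC-like cells Cdkn1a was 35.3 CPM [31.3 to 39.7] in Sham, against 111 [96.6 to 127] for IRI24h-TDN and 127 [100 to 158] for IRI24h-TD. The folds were 3.15 [2.62 to 3.78] and 3.58 [2.75 to 4.61]. With cells of at least 500 genes and at most 20% mitochondrial UMIs the first was 5.91. Cells that carried both PEC and PTEC markers had 107, 292 and 169 CPM, and the mixture was 2.73-fold [2.42 to 3.09] above Sham. PEC-like cells had 126, 178 and 164 CPM, a fold of 1.41 [1.16 to 1.7] for IRI24h-TDN and 1.3 [1.1 to 1.53] for IRI24h-TD. The tdT+ library and the mixture were thus close in PTEC-like and PEC-like cells, and IRI24h-TD was lower than IRI24h-TDN, at a fold of 0.579 [0.505 to 0.664], in the class with both marker sets. Summed over the class, the lead of IRI over Sham in PEC-like cells was below 2-fold. Within the 2 clusters compared for IRI24h-TDN the folds were 1.66 and 1.81. For IRI24h-TD, 2 of 3 clusters were higher than Sham, and 1 of them reached a fold of 2.35. In cluster 11.1 IRI24h-TD was lower than Sham, at a fold of 0.551 [0.37 to 0.805].

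Ascending limb-like cells had 27.1 CPM [17 to 41.1] of Cdkn1a in Sham and 172 [160 to 184] in IRI24h-TDN, a fold of 6.34 [4.16 to 10.2]. The 22 Sham UMIs included 36.4% from 1 cell, and without the top cell of each library the fold was 9.67 [5.73 to 17.8]. The class joins cluster 25, with 98 Sham cells and 2 IRI24h-TDN cells, and cluster 15, with 21 Sham and 453 IRI24h-TDN cells, whose leading genes include Spp1, Lcn2 and Clu, known from injured tubules. Within cluster 15, Cdkn1a was 109 CPM in Sham and 173 in IRI24h-TDN, a fold of 1.59 [1.01 to 2.65]. One Sham cell held 8 of the 19 Sham UMIs there, and without the top cell of each library the levels were 66 and 169 CPM, a fold of 2.57 [1.43 to 5.17]. The Sham cells of cluster 25 had 4.71 CPM, from 3 UMIs. The injured tubule markers summed to 7082 CPM in Sham and 61415 in IRI24h-TDN for the class, and their part was not tested.

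The remaining tubule classes had Cdkn1a folds of 2.68 [2.14 to 3.39] in connecting tubule and principal-like cells (48.7 and 130.5 CPM), 2.36 [2.06 to 2.71] in intercalated-like cells (118 and 279 CPM) and 1.56 [1.25 to 1.97] in distal convoluted tubule-like cells (143 and 223 CPM), which was 2.15 [1.65 to 2.86] without the top cell of each library. The highest levels in Sham were those of endothelial-like, mesangial and smooth muscle-like and monocytic-like cells. Endothelial-like cells had 483 CPM in Sham and 970.2 in IRI24h-TDN, a fold of 2.01 [1.7 to 2.38], mesangial and smooth muscle-like cells 677 and 1072 CPM, a fold of 1.58 [1.47 to 1.71], and monocytic-like cells 582 and 721 CPM, a fold of 1.24 [1.15 to 1.34]. Cycling cells had 111 and 310 CPM, a fold of 2.78 [1.96 to 4.04]. Cdkn1a was at least 2-fold higher in 8 of the 12 classes, and its interval lay above 1 in all 12.

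The order of the classes by Cdkn1a level in Sham ran from podocyte-like cells, the lowest, through ascending limb-like, PTEC-like and connecting tubule and principal-like cells to mesangial and smooth muscle-like cells, the highest. Neighbours whose intervals overlapped were ascending limb-like, PTEC-like and connecting tubule and principal-like cells in turn, then the class with both marker sets, cycling, intercalated-like, PEC-like and distal convoluted tubule-like cells in turn, and endothelial-like and monocytic-like cells. In IRI24h-TDN podocyte-like cells were still the lowest and mesangial and smooth muscle-like cells the highest, with an interval that overlapped that of endothelial-like cells. The intervals of podocyte-like cells overlapped those of no other of the 12 classes in either library. The plot of Cdkn1a by class shows the order and the gap.

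**Figure D4:**
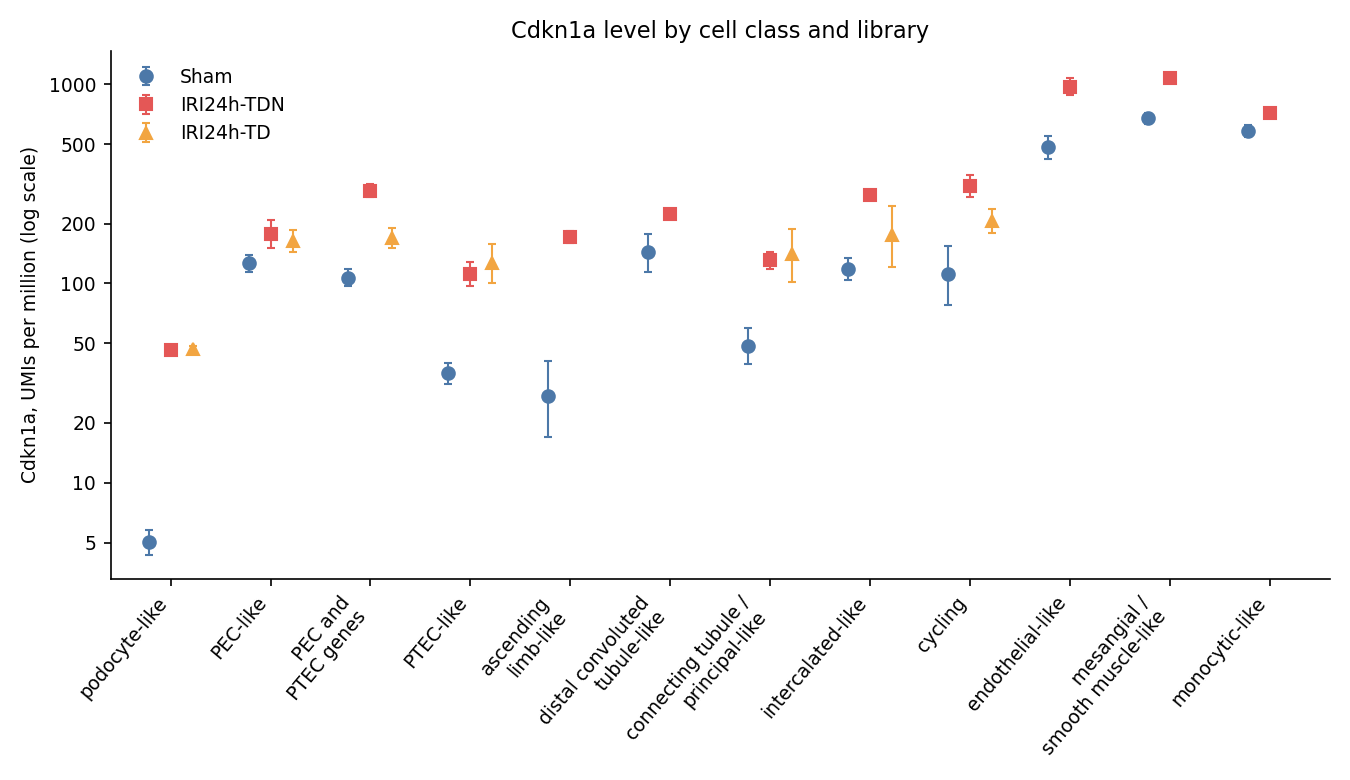
Cdkn1a in CPM (vertical axis, log scale) by cell class (horizontal axis) and library, with exact 95% Poisson intervals for counting error and groups with 0 UMIs not drawn. IRI24h-TDN lies above Sham in all 12 classes, and the gap is widest in podocyte-like cells, at 5.04 against 46.5.

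Gdf15, a secreted member of the TGF-β superfamily that rises in stressed cells, differed by class in both level and direction. In PTEC-like cells it was 162 CPM in Sham, against 484 for IRI24h-TDN and 320.4 for IRI24h-TD, with folds of 3 [2.75 to 3.27] and 1.98 [1.7 to 2.3]. Distal convoluted tubule-like cells had 57.6 and 433 CPM, a fold of 7.51 [5.34 to 10.9] that was 13.6 without the top cell of each library, as 1 of the 47 Sham cells held 48% of the 33 Sham UMIs. Ascending limb-like cells had 55.5 and 268 CPM, a fold of 4.83 [3.59 to 6.66]. Within cluster 15 the Gdf15 fold was 1.96 [1.31 to 3.06], and 5.03 [2.54 to 11.7] without the top cell of each library, as 1 cell held 16 of the 24 Sham UMIs. Monocytic-like and mesangial and smooth muscle-like cells were 2.8-fold [2.27 to 3.48] and 2.71-fold [2.08 to 3.57] higher. Connecting tubule and principal-like cells had the highest level in both conditions, 720 CPM in Sham and 1337 in IRI24h-TDN, a fold of 1.86 [1.75 to 1.98].

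Summed over the class, PEC-like cells had less Gdf15 after IRI, 123 CPM in Sham, against 88.8 for IRI24h-TDN and 84.8 for IRI24h-TD, with folds of 0.724 [0.559 to 0.928] and 0.692 [0.56 to 0.85]. Within the 2 clusters compared for IRI24h-TDN the folds were 0.591 and 0.758. For IRI24h-TD they ranged from 0.616 to 1.47 over 3 clusters, and 1 of these was higher than Sham. That was cluster 11.1, with 46.1 CPM in Sham (30 UMIs) and 67.9 in IRI24h-TD (26 UMIs). Cells with both marker sets had 387, 376 and 219 CPM. In podocyte-like cells the level was low, at 6.48, 6.18 and 2.29 CPM. Discarded barcodes with fewer than 200 genes had 4.05 CPM in Sham (12 UMIs), 9.28 in IRI24h-TDN (12 UMIs) and 6.79 in IRI24h-TD (1 UMI). Whether Gdf15 in podocyte-like cells lay above the level of free RNA was not tested. Over all cells the level was 150.4 CPM for IRI24h-TDN and 20.3 for IRI24h-TD. The fold of 0.371 [0.309 to 0.445] between IRI24h-TD and IRI24h-TDN, the 1 member of 10 at least 2-fold different there (all genes in either direction, 7.0%), lies between levels of that size. Endothelial-like cells had 36 and 5 UMIs, and 83% of the Sham UMIs came from 1 cell.

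The integrated stress response genes, a list of 11 that includes Atf3, Trib3, Asns and Chac1, were summarised beside Gdf15, since they share that input. In PTEC-like cells 6 of 10 with a fold were at least 2-fold higher in IRI24h-TDN (all genes, 16.0%), with a median log2 fold of 2.87. Intercalated-like cells had 5 of 9 (9.56%), with a median of 1.09, and ascending limb-like cells 3 of 8 (7.52%), with 0.66. Connecting tubule and principal-like cells had 4 of 8 (10.3%), with 0.86, and 1 lower (9.25%). Distal convoluted tubule-like cells, with the greatest Gdf15 fold, had 1 of 7 (8.06%), with a median of 0.29, and 1 lower (18.4%). Monocytic-like cells had 3 of 9 (13.6%), with 0.01, and 2 lower (10.1%). Mesangial and smooth muscle-like cells had 1 of 7 (7.09%), with -0.05. Cycling cells had 3 of 8 (16.4%), with 0.30, and 1 lower (17.2%). Among classes without a higher Gdf15 level in IRI24h-TDN, the one with both PEC and PTEC markers had 5 of 11 (8.06%), with 0.22. Podocyte-like cells had 3 of 11 (6.59%), with 0.14, and 1 lower (11.7%). PEC-like cells had 1 of 8 (5.27%), with 0.04, and endothelial-like cells 1 of 6 (9.22%), with 0.50. The medians of all genes in these classes lay between -0.15 and 0.18. Whether these genes have a part in the Gdf15 folds was not tested.

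Bax encodes a pore-forming protein that opens the outer mitochondrial membrane during apoptosis, and was higher in IRI24h-TDN with an interval above 1 in 11 of 12 classes. PTEC-like cells had 73.8 CPM in Sham, against 184 for IRI24h-TDN and 154 for IRI24h-TD, with folds of 2.5 [2.18 to 2.86] and 2.08 [1.66 to 2.59]. Ascending limb-like, distal convoluted tubule-like and endothelial-like cells had folds of 2.55 [1.69 to 4.03], 2.3 [1.47 to 3.79] and 2.18 [1.45 to 3.32]. In podocyte-like cells the fold was 1.18 [1.11 to 1.25], from 45.4 to 53.5 CPM, with 56.8 in IRI24h-TD, beside the 9.21-fold of Cdkn1a. PEC-like cells had 75.5, 117 and 117 CPM, a fold of 1.55 [1.22 to 1.97]. The fold of 1.22 [0.99 to 1.5] in connecting tubule and principal-like cells was the one whose interval reached 1.

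Phlda3, which encodes an inhibitor of AKT at the membrane, was rare. Podocyte-like cells had 21 UMIs in Sham and 72 in IRI24h-TDN, that is 0.557 and 1.41 CPM and a fold of 2.53 [1.54 to 4.34], and 0.919 CPM in IRI24h-TD. Among podocyte-like clusters with at least 10 Phlda3 UMIs in the 2 groups together, IRI24h-TDN was higher than Sham in 1 of 3 and at least 2-fold lower in 1. IRI24h-TD was higher than Sham in 3 of 4 such clusters and at least 2-fold lower in 1. PTEC-like cells had 28 and 22 UMIs, a fold of 3.34 [1.82 to 6.06], and 0 UMIs in the 48 cells of IRI24h-TD. Monocytic-like cells had 0 and 11 UMIs, and the interval of the ratio started at 0.632. Trp53inp1, a nuclear protein that promotes p53 activity and autophagy, had its interval below 1 in 5 of 12 classes. Podocyte-like cells had 154 CPM in Sham, against 136 for IRI24h-TDN and 147 for IRI24h-TD, and distal convoluted tubule-like cells had a fold of 0.44 [0.305 to 0.653]. Intercalated-like cells had 46.6 and 80 CPM, a fold of 1.72 [1.37 to 2.17], the only class whose Trp53inp1 interval lay above 1.

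Btg2, an antiproliferative gene of the BTG/TOB family that is also induced as an immediate early gene, went in both directions. Podocyte-like cells had 728 CPM in Sham, against 1229 for IRI24h-TDN and 1230 for IRI24h-TD, folds of 1.69 [1.66 to 1.71] and 1.69 [1.67 to 1.71], and Btg2 was higher in 10 of 10 clusters. PTEC-like cells had 58.3, 177 and 184 CPM, with folds of 3.04 [2.63 to 3.51] and 3.16 [2.55 to 3.88]. The first ranged from 1.6 with no correction between libraries to 3.99 with thinned counts. The fold was below 1 in distal convoluted tubule-like cells, 0.372 [0.336 to 0.413] from 815 to 303 CPM, in monocytic-like cells, 0.482 [0.449 to 0.518], and in cycling cells, 0.389 [0.299 to 0.505]. PEC-like cells had 523 CPM in Sham, against 262 for IRI24h-TDN and 528 for IRI24h-TD, a fold of 2.02 [1.73 to 2.35] between the 2 libraries of the same injury. Within the 2 clusters with at least 20 PEC-like cells of both, that fold was 1.16 and 1.07. Cluster 11.1 had 1237 CPM in IRI24h-TD and held 27.8% of its PEC-like cells, against 15.5% in IRI24h-TDN, and the 10 podocyte markers summed in PEC-like cells to 3351 CPM in Sham, 1840 after IRI in the mixture and 6780 in the tdT+ library. Their part was not tested. Btg2 was at least 2-fold higher in 1 class and at least 2-fold lower in 4. The 4 include PEC-like cells, whose fold ranged from 0.453 to 0.873 under other settings planned in advance.

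The immediate early genes, a list of 9 with Fos, Jun, Egr1 and others, moved with Btg2 in several classes. Their median log2 fold was -1.70 in distal convoluted tubule-like cells, with 9 of 9 lower, -1.24 in cycling cells, -0.99 in monocytic-like cells with 9 of 9 lower, -0.47 in PEC-like cells with 9 of 9 lower and 0.36 in podocyte-like cells. In PTEC-like cells the median was -0.04, with 4 of 9 higher. The medians of all genes in these 6 classes lay between -0.15 and 0.18. The part of these genes in the Btg2 values was not tested.

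Plk2, a polo-like kinase of centriole duplication and the stress response, also differed between classes. PTEC-like cells had 48.5 CPM in Sham, against 13.4 for IRI24h-TDN and 32 for IRI24h-TD, with a fold of 0.277 [0.177 to 0.415] for the mixture. Monocytic-like cells had 262 and 90.7 CPM, a fold of 0.347 [0.303 to 0.397], and PEC-like cells 79.4 and 39.1, a fold of 0.492 [0.332 to 0.709]. In the other direction, connecting tubule and principal-like cells had 9 and 30.8 CPM, a fold of 3.42 [2.04 to 6.08], and mesangial and smooth muscle-like cells had a fold of 2.72 [1.64 to 4.75]. Distal convoluted tubule-like cells had 2 UMIs in Sham and 101 in IRI24h-TDN, a ratio of 4.52 [1.22 to 37.9]. The podocyte-like fold was 1.83 [1.57 to 2.13], but within clusters 3 of 10 were at least 2-fold higher and 3 at least 2-fold lower.

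**Figure D5:**
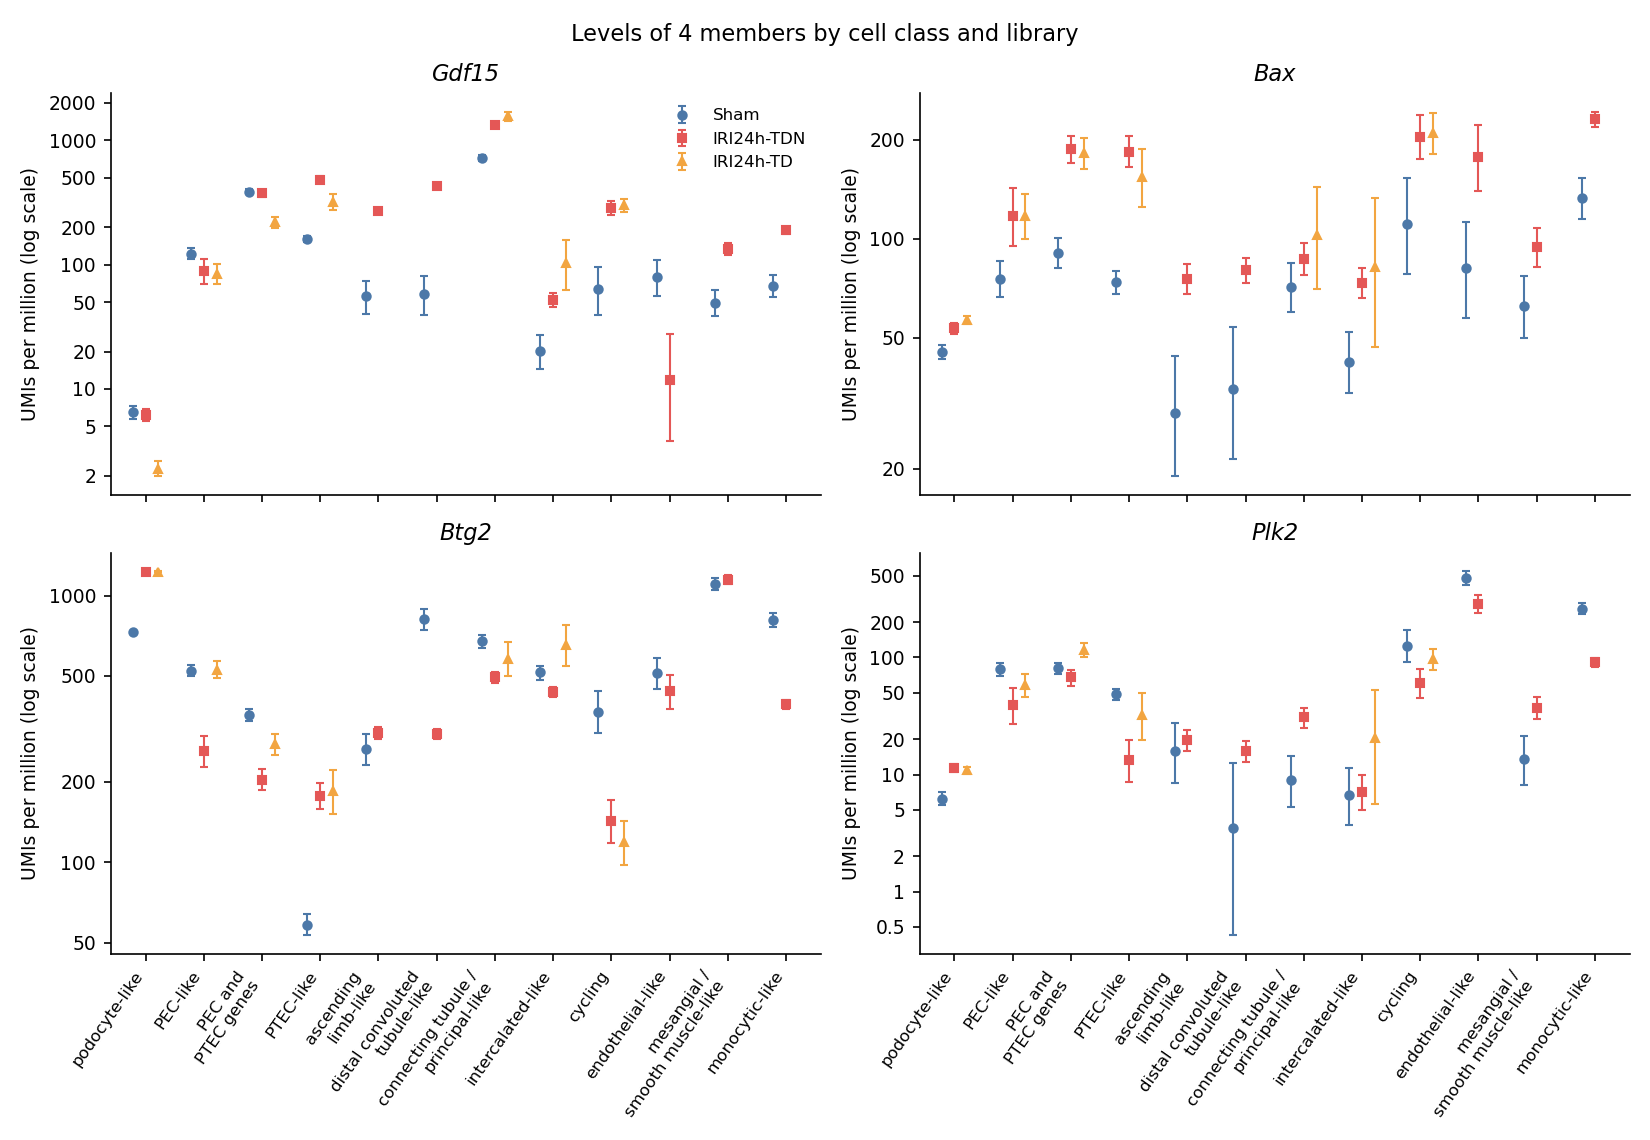
Gdf15, Bax, Btg2 and Plk2 in CPM (vertical axes, log scale) by cell class (horizontal axis) and library, with exact 95% Poisson intervals and groups with 0 UMIs not drawn. Bax lies above Sham in all 12 classes, whereas Btg2 lies below Sham in distal convoluted tubule-like cells (303 against 815) and lies above it in PTEC-like cells (177 against 58.3).

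Mdm2, Ccng1 and Zmat3 showed small folds. Mdm2 ranged over the 12 classes from 0.741 [0.526 to 1.07] in distal convoluted tubule-like cells to 1.96 [1.62 to 2.38] in monocytic-like cells (87.2 and 171 CPM), and its interval lay above 1 in 7 classes and below 1 in 0. Podocyte-like cells had 57.7 CPM in Sham, against 70.5 for IRI24h-TDN and 73.9 for IRI24h-TD. Ccng1, cyclin G1, had a fold of 0.951 [0.921 to 0.983] in podocyte-like cells (170.1 and 162 CPM) and its only fold of at least 2 in cycling cells, 2.26 [1.61 to 3.25]. Zmat3, an RNA-binding zinc finger protein, was 29.9, 59.1 and 51.3 CPM in PTEC-like cells, with a fold of 1.98 [1.56 to 2.49], and 27.5, 25.5 and 27.4 CPM in podocyte-like cells. The Cdkn1a fold of podocyte-like cells was thus not accompanied by a fold of 2 in Mdm2, Ccng1, Bax, Zmat3 or Trp53inp1.

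Counted in single cells thinned to 2400 UMIs, podocyte-like cells had UMIs of a mean of 1.56 of the 10 members in Sham, against 1.85 for IRI24h-TDN and 1.88 for IRI24h-TD. The share with none of the 10 was 12.4%, 5.81% and 4.91%. PTEC-like cells had 1.15, 1.88 and 2.32, and ascending limb-like cells 0.927 and 1.58. PEC-like cells had 1.88, 1.81 and 1.93, a narrower range than in podocyte-like, PTEC-like and ascending limb-like cells.

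Of 36 other p53 targets, a list chosen with earlier results known, 10 of 33 with a fold were at least 2-fold higher in PTEC-like cells (Bbc3, Pmaip1, Fas, Tnfrsf10b, Ephx1, Eda2r, Cd82, Sfn, Dram1 and Ptp4a3) and 2 were at least 2-fold lower, beside the 16.0% and 12.1% of all genes. Their median log2 fold was 0.58. In podocyte-like cells 3 of 33 were at least 2-fold higher (Fas, Perp and Sfn) beside 6.59% of all genes, 2 were lower beside 11.7%, and the median was 0.05. PEC-like cells had 3 of 34 higher (all genes, 5.27%) and 1 lower (7.67%). Ascending limb-like cells had 4 of 29 in each direction (7.52% higher and 13.6% lower), and monocytic-like cells 1 of 32 higher (13.6%) and 6 lower (10.1%). Connecting tubule and principal-like cells had 7 of 29 higher (10.3%) and intercalated-like cells 7 of 32 (9.56%), with 0 at least 2-fold lower in both (9.25% and 7.54%).

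Sfn encodes the arrest protein 14-3-3σ. It was the gene of that list at least 2-fold higher in IRI24h-TDN in podocyte-like, PEC-like and PTEC-like cells alike. In IRI24h-TD against Sham it was at least 2-fold higher in PEC-like and PTEC-like cells, but not in podocyte-like cells. The Sfn level was 1.25 CPM in Sham and 2.88 in IRI24h-TDN in podocyte-like cells, a fold of 2.31 [1.65 to 3.28]. Whether these low podocyte-like values lay above the level of free RNA was not tested. The 8 injured tubule markers summed in podocyte-like cells to 45.6 (Sham), 380 (IRI24h-TDN) and 131 CPM (IRI24h-TD), and their part was not tested. In PEC-like cells Sfn was 15.7 and 56.8 CPM, a fold of 3.62 [2.4 to 5.46], and in ascending limb-like cells 18.5 and 167 CPM, a fold of 9.03 [5.44 to 16.2]. PTEC-like cells had 5 Sfn UMIs in Sham and 77 in IRI24h-TDN, a fold of 65.6 [26.9 to 208].

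Of the regulators of the pathway, Trp53, which encodes p53 itself, was 61.1 CPM in Sham and 81.9 in IRI24h-TDN in podocyte-like cells, a fold of 1.34 [1.27 to 1.41], and 52.3 and 90.3 CPM in PTEC-like cells, a fold of 1.73 [1.44 to 2.07]. p53 is controlled largely at the protein level, which these counts do not measure. Mdm4, an inhibitor of p53, had a fold below 1 in all 12 classes, such as 0.611 [0.574 to 0.65] in podocyte-like cells (58 and 35.4 CPM), 0.592 [0.41 to 0.834] in PTEC-like cells and 0.458 [0.269 to 0.738] in PEC-like cells. Ppm1d, a phosphatase that ends the p53 response, had a podocyte-like level of 22.1 and 21.1 CPM, a fold of 0.955 [0.872 to 1.05].

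Over 32 groups of a class in 1 library, and among 9049 genes with at least 50 CPM in 1 group, the log2 CPM most like that of Cdkn1a belonged to Svil, Vasp, Arhgef2, Notch1 and Elk3, with Pearson's r from 0.82 to 0.72. For Gdf15 they were Carmil1, Fam149a, Sestd1, Mpp6 and Atpif1, with r from 0.87 to 0.79. Between members, the highest r was 0.67 for Mdm2 and Bax, and Cdkn1a and Bax reached 0.52. These are descriptions, since the groups share libraries and cell preparations and differ in depth.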

How the data were processed

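For each of 3 BD Rhapsody libraries the authors deposited a table of raw UMI counts, genes by barcodes, in which all values were whole numbers. The submitters' processing notes name CASAVA 1.8, UMI-tools, Seurat and the build mm10, and the aligner is not given in the sources used here. The Sham and IRI24h-TDN tables have the same number of barcodes and genes, and the study states that multiplets were excluded. No doublets were removed here.

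Barcodes with at least 200 genes and at most 50% mitochondrial UMIs were kept. Counts were log-scaled, reduced to 30 principal components over 2000 variable genes, corrected between libraries by the Harmony procedure (theta 2) and clustered on 15 neighbours by leidenalg 0.10.2 at resolution 1 (Python 3.11.15, numpy 2.4.6, scipy 1.17.1, pandas 2.3.3). A cluster was named from a marker list with at least 3 markers in 25% of its cells and a score of at least 1.5, and mixed clusters of at least 100 cells were split. These limits were set after the clusters were seen, and class names end in "-like" for that reason. The members and gene lists were chosen with earlier results of these data known. The named genes are the 10 members, Trp53, Mdm4 and Ppm1d, other p53 targets at least 2-fold changed the same way in podocyte-like, PEC-like and PTEC-like cells, and for Cdkn1a and Gdf15 the 5 genes with the highest correlation of log2(CPM + 1).

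UMIs were summed per class and library, with exact Poisson intervals for levels, exact conditional binomial intervals for folds and Clopper-Pearson intervals for shares, all at 95% and for counting error only. The floor for a group without UMIs was 3 UMIs. Cells below 2400 UMIs were left out of thinned shares, which removed 91 of 4472 podocyte-like cells from Sham, 5 of 5341 from IRI24h-TDN and 645 of 9049 from IRI24h-TD. With 1 library per condition no test was made. The folds and their intervals were tested on simulated Poisson counts of class sums. These hold no spread between cells or animals, so that they cannot show how such spread affects the intervals. Clustering, naming and thinning were not simulated. An alternative scaling used edgeR 4.0.16 in R 4.3.3. Gene positions came from GENCODE M21, and promoter sequences from RefSeq.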

Additional observations from a re-analysis of the deposited data

Results flagged for a closer look

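The direction of the fold of IRI24h-TDN against Sham differed between cell classes for 2 members. Btg2 was 3.04-fold higher in PTEC-like cells and at a fold of 0.372 in distal convoluted tubule-like cells. The first value was 1.6 with no correction between libraries. Plk2 was 3.42-fold higher in connecting tubule and principal-like cells and at a fold of 0.277 in PTEC-like cells. The differences between classes were not tested, since each condition has 1 library.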

How the results depend on the processing

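Counts of members at least 2-fold different were recomputed under 12 alternatives set in advance and 7 chosen after seeing the data, and 96 of 103 alternative counts were within 1.5 times the reported count. For podocyte-like cells in IRI24h-TD against Sham, 1 member became 2 with no correction between libraries, 2 with the mean of the CPM of single cells and 3 in clusters 4 and 5 only. For IRI24h-TD against IRI24h-TDN, 1 became 0 with the mean of single cells and 0 in clusters 4 and 5 only, and for IRI24h-TDN against Sham, 2 became 1 with thinned counts. For ascending limb-like cells, 3 became 0 in cluster 15 only and 2 there without the cell with most UMIs of a gene in each library. Of 1014 single-gene folds, 898 stayed within the interval of the reported value, 115 moved and 1 reversed. The reversed fold was Gdf15 in podocyte-like cells of IRI24h-TD against IRI24h-TDN, at 1.57 in clusters 4 and 5 only. The cause was not tested. Reversal was counted only for reported folds of at least 2 in either direction, so that smaller folds that crossed 1 are among the others. Cdkn1a in PEC-like cells of IRI24h-TD against Sham, for example, fell to 0.997 with the mean of the CPM of single cells. Btg2 in ascending limb-like cells ranged from 0.507 to 1.68 over the alternatives set in advance. The Cdkn1a fold of podocyte-like cells ranged from 8.24 to 10.7 over the alternatives set in advance and was 7.23 in clusters 4 and 5 only. With at least 500 genes and at most 20% mitochondrial UMIs it was 2.7 in ascending limb-like cells and 5.91 in PTEC-like cells, and the Btg2 fold of PTEC-like cells was 1.6 with no correction between libraries.
No paired analysis was possible because each group has 1 library, and no library could be left out.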
